A study of Homo sapiens with 5 samples.

Results

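The genes described here are 10 members of the AP-1 transcription factor family and of the immediate early response, taken by symbol: *FOS*, *FOSB*, *FOSL1*, *FOSL2*, *JUN*, *JUNB*, *JUND*, *EGR1*, *ATF3*, and *IER2*. Counts were present for 9 of these 10 among the 27328 genes of the table, and *FOS* was not analysed here. They were measured by RNA-seq in TF-1, a human AML cell line with erythroid features that depends on GM-CSF. All cells carried a lentivirus encoding Cas9, GFP, and an sgRNA, which in the 2 control pools (sgCtrl pools 1 and 2) targets *Renilla luciferase* and in the 3 knockout pools (sgMTSS1_1, sgMTSS1_2, and sgMTSS1_3) targets *MTSS1*. Each library came from a pool of 4 clones raised from single cells, so that a replicate is a pool, and each knockout replicate also differs from the others in its sgRNA. All pools were kept in medium with serum and GM-CSF and collected during logarithmic growth, with no drug. Pools that the authors excluded were not analysed here.

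AP-1 is a dimer of leucine zipper proteins. JUN proteins can pair with each other or with a FOS protein, whereas FOS proteins need a JUN partner, and the dimer binds the DNA motif TGACTCA, the TPA response element (TRE). Immediate early genes are transcribed within minutes of a growth factor or stress signal without new protein synthesis, through factors such as SRF and CREB that are already present, and most of their mRNAs are short-lived. *JUND* is the exception in the JUN family, as it is expressed steadily in many resting and growing cells.

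Totals per library ranged from 2849979 to 3408827 counts in the control and from 5442639 to 8854899 counts in the knockout pools. Every knockout library was therefore deeper than both controls. Ribosomal protein genes took 7.55% and 9.30% of control counts and between 11.9% and 17.7% of knockout counts, and mitochondrially encoded genes took 13.9% and 8.63% against 6.71% to 7.44%. The part of these shifts in the results was not tested, apart from depth, for which libraries of equal size are given below. All 14 markers of TF-1 cells chosen for this check, including *CD34*, *KIT*, *GATA1*, and *CSF2RA*, were above 1 CPM (counts scaled to a common library total with TMM factors) in every library. *CD34*, *KIT*, *KLF1*, and *CSF2RB* were higher in all knockout pools than in both control pools, and *GATA1* was lower in all of them. *CD34* was at 131 and 112 CPM in the control and 213, 343, and 167 CPM in the knockout pools. *GATA1* was at 109 and 80.2 CPM against 56.1, 62.3, and 74.7 CPM. The other TF-1 markers overlapped. Of all tested genes, 22.2% were above and 19.2% below in this way. The part of these marker differences in the results was not tested. Summed markers of monocytes were at most 1.38 CPM, of fibroblasts 1.04 CPM, and of T cells 5.71 CPM. Epithelial markers summed to between 11.7 and 26.1 CPM, nearly all from *KRT8*. The B cell marker *CD79A* did not overlap between the groups, at 6.21 and 2.37 CPM in control pools and 0.516, 0.898, and 0.692 CPM in knockout pools (41 counts in all), and its part in the results was not tested. *MTSS1* mRNA was at 203 and 87.4 CPM in the control and 103, 138, and 49.7 CPM in the knockout pools. As reads come from the 3′ end of transcripts, these levels were not taken as a check of the knockout. The authors had verified the knockout in the pooled clones by immunoblot of the protein.

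The promoters of *JUNB*, *IER2*, *JUND*, and *EGR1* are shown because the first 3 are the members that differed between the groups, and *EGR1* carries the binding site of SRF, whose own mRNA had the largest log2-fold change of the regulators described below. Sequences are from RefSeq on GRCh38.p14, on the strand of the gene, from 250 bases before to 50 bases after the annotated start. Of the 9 measured members, 8 had an entry. Capitals mark matches to the CArG box (bound by SRF), to the cAMP response element TGACGTCA (CRE), its core TGACG, the TRE, and the promoter elements TATAAA and CCAAT, on either strand. The core on the opposite strand reads CGTCA, and every CRE holds the core on both strands. *JUNB* is shown at chr19:12791236-12791535, *IER2* at chr19:13150161-13150460, *JUND* (minus strand) at chr19:18281573-18281872, and *EGR1* at chr5:138465229-138465528.
JUNB: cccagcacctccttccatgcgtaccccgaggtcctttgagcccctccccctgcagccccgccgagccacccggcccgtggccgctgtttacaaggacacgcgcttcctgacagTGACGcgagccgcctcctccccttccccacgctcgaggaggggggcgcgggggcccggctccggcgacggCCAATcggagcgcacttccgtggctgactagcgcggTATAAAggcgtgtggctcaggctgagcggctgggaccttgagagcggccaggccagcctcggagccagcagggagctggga
IER2: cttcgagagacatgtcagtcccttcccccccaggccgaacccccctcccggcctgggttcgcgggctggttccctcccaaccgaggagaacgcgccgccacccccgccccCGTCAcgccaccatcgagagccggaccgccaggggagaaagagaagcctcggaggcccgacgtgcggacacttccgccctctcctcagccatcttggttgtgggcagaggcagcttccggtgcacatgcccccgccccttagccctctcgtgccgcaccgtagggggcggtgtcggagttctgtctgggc
JUND: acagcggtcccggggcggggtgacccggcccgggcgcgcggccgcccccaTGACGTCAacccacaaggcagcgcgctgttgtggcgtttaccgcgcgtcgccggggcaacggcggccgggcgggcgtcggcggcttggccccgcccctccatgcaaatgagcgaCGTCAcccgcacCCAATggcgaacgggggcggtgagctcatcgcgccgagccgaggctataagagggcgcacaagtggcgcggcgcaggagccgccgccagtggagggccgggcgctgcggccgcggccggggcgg
EGR1: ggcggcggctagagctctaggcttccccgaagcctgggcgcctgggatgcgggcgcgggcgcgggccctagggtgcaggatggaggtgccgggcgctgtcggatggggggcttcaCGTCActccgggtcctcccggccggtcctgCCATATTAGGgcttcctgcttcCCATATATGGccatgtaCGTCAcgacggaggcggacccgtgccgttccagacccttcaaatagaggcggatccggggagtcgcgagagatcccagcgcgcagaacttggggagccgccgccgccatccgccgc

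The *JUND* window holds a full CRE starting 200 bases upstream of the start, a motif present in 1.85% of the 35116 promoter windows of the same length. *JUNB* has the CRE core starting 137 bases upstream, CCAAT starting 67 bases upstream, and TATAAA starting 31 bases upstream. *IER2* has the CRE core starting 140 bases upstream. *EGR1* has a pair of CArG boxes, starting 105 and 83 bases upstream. A CArG box occurs in 1.29% of all windows, the CRE core in 24.6%, the TRE in 4.95%, TATAAA in 11.5%, and CCAAT in 34.6%. Within these windows, *EGR1* was the sole measured member with a CArG box and *FOSL2* the sole one with a TRE. The search covers these letters in this window alone.

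*JUNB* and *IER2* were the members whose mRNA rose in the knockout, 4.61-fold and 5.49-fold, and *JUND* was lower by 2.41-fold. The call of *JUND* was lost in several of the alternative analyses given below. *JUN*, *FOSL2*, *FOSL1*, and *EGR1* did not pass the test. Of the 9 measured members, 7 passed the filter on low counts, and 3 of the 7 were differentially expressed (absolute log2-fold change above 1 with an adjusted p below 0.05, by edgeR's quasi-likelihood test and Benjamini-Hochberg adjustment over all tested genes). Among all 14391 tested genes, 5.18% were differentially expressed, 4.17% higher and 1.01% lower in the knockout (600 and 145 genes, or 592 and 364 genes after correction for GC content and transcript length). With 7 members, 1 gene more or less moves this share by a wide margin. Over the 7 members the median log2-fold change was 0.09, and over all tested genes it was −0.03.

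*JUNB* (ENSG00000171223) lies on chromosome 19, from 12791486 to 12793315 of GRCh38, and consists of 1 exon. It encodes a JUN protein that is a weaker activator than JUN at many sites and that restrains myeloid growth in mice. Its level was 10.5 and 4.74 CPM in sgCtrl pools 1 and 2, while the pools of sgMTSS1_1, sgMTSS1_2, and sgMTSS1_3 had 35.1, 30.3, and 40.5 CPM. All knockout pools were above both control pools, and the lowest knockout pool was far above the highest control pool. The means were 7.64 ± 4.11 CPM (SD, n = 2) and 35.3 ± 5.08 CPM (SD, n = 3), a log2-fold change of 2.21 (SE 0.41, edgeR adjusted p = 0.0215). The control values rest on 34 and 16 counts, and the knockout values on 272, 169, and 234 counts. Without the sgMTSS1_1 or the sgMTSS1_3 pool, the adjusted p-value from edgeR was 0.0781 or 0.0655, with a log2-fold change of 2.20 or 2.15. *HOOK2*, which contains *JUNB* on the opposite strand, was at 32.6 and 29.0 CPM in the control and 17.7, 37.9, and 38.2 CPM in the knockout pools. Whether strand was used in counting is not given in the sources used here, so that reads of the pair cannot be told apart with certainty.

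*IER2* (ENSG00000160888, chromosome 19, 13150411 to 13154911) encodes a nuclear regulator of transcription induced by growth factors. It was at 8.69 and 14.2 CPM in the control pools and at 45.1, 69.7, and 74.7 CPM in the knockout pools, again without overlap. The means were 11.5 ± 3.91 CPM (SD, n = 2) and 63.2 ± 15.8 CPM (SD, n = 3), and the log2-fold change was 2.46 (SE 0.39, edgeR adjusted p = 0.0131). *IER2* passed both thresholds in all 17 alternative analyses, with log2-fold changes from 2.16 to 2.88. Annotated lncRNA genes overlap it on the opposite strand and were not analysed here.

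*JUND* (ENSG00000130522, chromosome 19, 18279694 to 18281622, minus strand, 1 exon) was at 441 and 305 CPM in the control and 131, 179, and 155 CPM in the knockout pools. Every knockout value lay under both control values. The means were 373 ± 96.1 CPM (SD, n = 2) and 155 ± 24.1 CPM (SD, n = 3). The log2-fold change was −1.27 (SE 0.31, edgeR adjusted p = 0.0463). It lies close to both thresholds. Leaving out sgCtrl pool 1 gave −0.97 with an adjusted p-value of 0.0775 in edgeR, and leaving out the sgMTSS1_1, sgMTSS1_2, or sgMTSS1_3 pool gave adjusted p-values of 0.137, 0.112, and 0.191. Correcting each library for GC content and transcript length gave 0.0615. The *JUND* transcript has a GC content of 69.9%, the highest among the measured members, against 64.9% for *JUNB* and 63.0% for *IER2*.

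**Figure D1:**
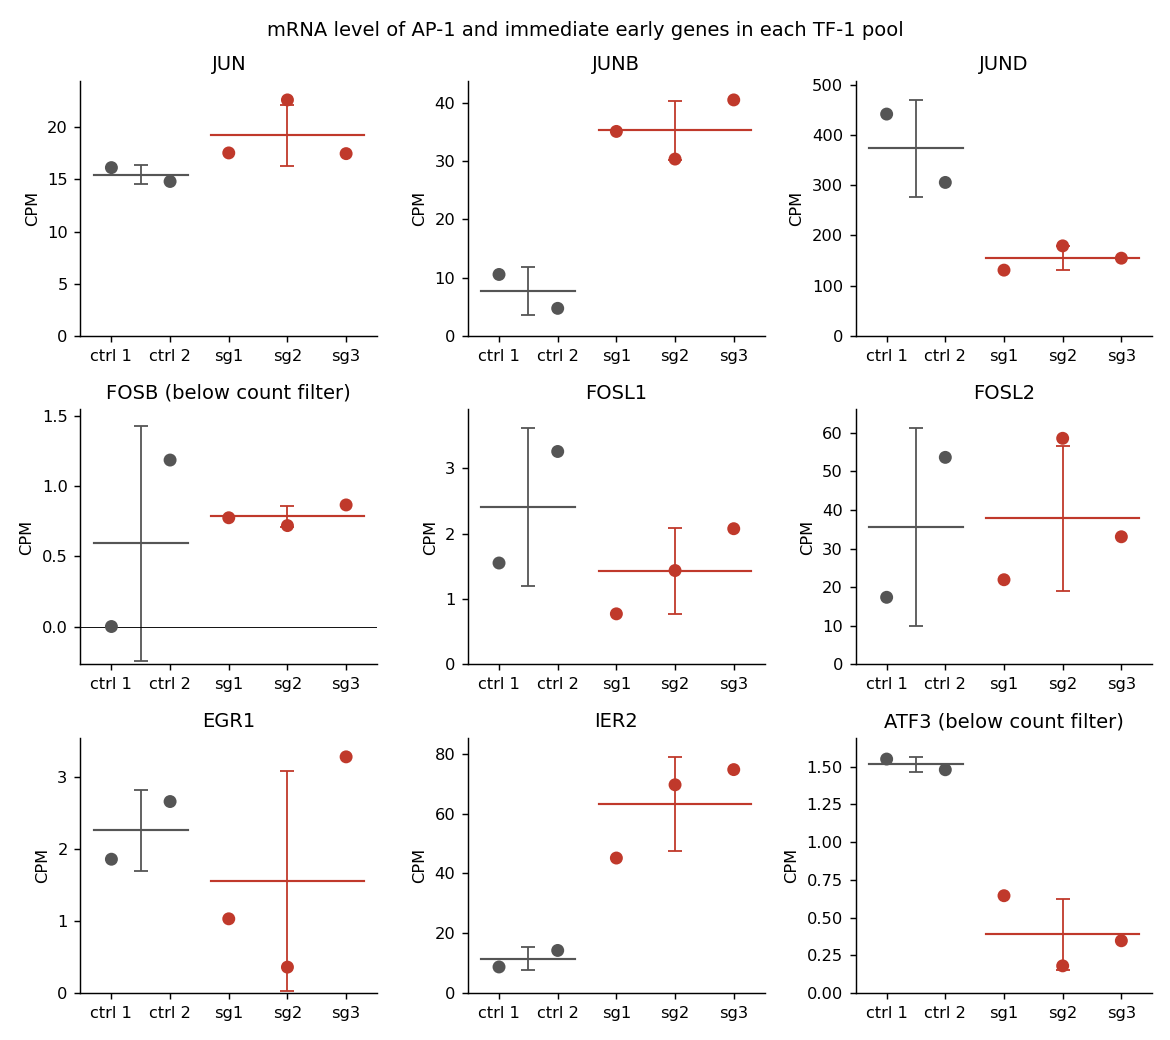
mRNA level (CPM, linear axes) of the 9 measured members in the control pools (grey, ctrl 1 and 2) and the knockout pools (red, sg1 to sg3 for sgMTSS1_1 to sgMTSS1_3). Points are libraries, horizontal lines group means, and bars SD. *JUNB* and *IER2* are higher and *JUND* lower in all 3 knockout pools than in both control pools.

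The make-up of the JUN family was compared within each library, where it does not depend on normalization. *JUNB* made up 2.25% of the *JUN*, *JUNB*, and *JUND* counts in sgCtrl pool 1 (95% Wilson interval 1.62 to 3.13) and 1.46% in sgCtrl pool 2 (0.900 to 2.36). In the sgMTSS1_1, sgMTSS1_2, and sgMTSS1_3 pools its share was 19.1% (17.2 to 21.2), 13.1% (11.3 to 15.02), and 19.0% (16.9 to 21.3). No interval of a knockout pool reached that of a control pool. The mean share was 1.86% ± 0.563 (SD, n = 2) in control and 17.1% ± 3.47 (SD, n = 3) in knockout pools, a difference of 15.2 percentage points. The two-sided exact permutation test over libraries gave p = 0.1, the smallest value that 2 against 3 libraries allow. The difference was between 14.2 and 17.2 percentage points with each library left out in turn, and 14.7 with all libraries thinned to 2849979 counts.

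*JUND* supplied 94.3% and 94.0% of JUN-family counts in control pools, compared with 71.3%, 77.2%, and 72.7% in the knockout. The share of *JUN* was 3.45% and 4.56% in control pools, compared with 9.56%, 9.74%, and 8.22% in the knockout. Since reads come from the 3′ end and not from the whole transcript, the counts were not divided by transcript length. *JUND* thus remained the most abundant JUN-family mRNA in every library. The summed level of the 3 genes was 468 and 325 CPM in the control and 184, 232, and 213 CPM in the knockout pools, and the groups did not overlap (p = 0.1, two-sided exact permutation test). Among all tested genes, 19.2% had all knockout pools below both control pools. *JUND* made up most of the sum in every library, so that the lower sum largely restates the *JUND* result. In bulk RNA, a lower level in every cell and a change in the mix of cells cannot be told apart.

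**Figure D2:**
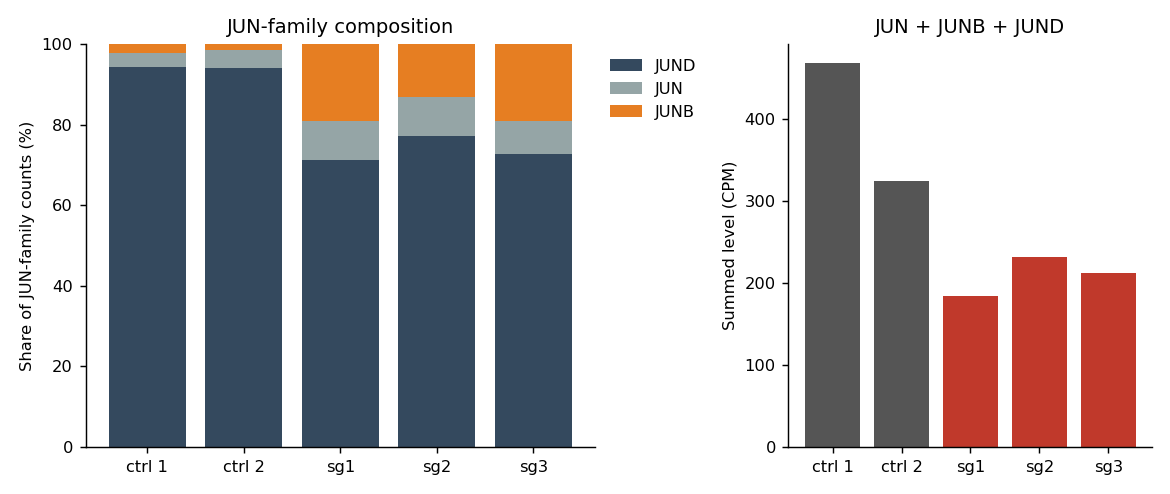
Left, share of *JUND*, *JUN*, and *JUNB* in the JUN-family counts of each library (%), and right, their summed level (CPM), for the control pools (ctrl 1 and 2) and the knockout pools (sg1 to sg3). *JUNB* makes up 1.46% and 2.25% of the counts in control and 13.1% to 19.1% in knockout pools, while the summed level is lower in all knockout pools.

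*JUN* (ENSG00000177606, chromosome 1, 58776845 to 58784048), the founding member of the family, was at 16.1 and 14.8 CPM in the control and 17.5, 22.6, and 17.5 CPM in the knockout pools. All knockout values were above both control values, but by little, with a log2-fold change of 0.31 (SE 0.33, edgeR adjusted p = 0.618). Of the 7 tested members, *JUNB*, *IER2*, and *JUN* had all knockout pools above both control pools, and *JUND* had all below. Among all tested genes these shares were 22.2% and 19.2%.

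Of the FOS family, *FOSL1* and *FOSL2* alone were tested, and neither was called. *FOSL2* (ENSG00000075426, chromosome 2, 28392448 to 28417317), which encodes FRA-2, was at 17.4 and 53.6 CPM in the control and 21.9, 58.5, and 33.0 CPM in the knockout pools. The control pools differed from each other more than the group means did, and the log2-fold change was 0.09 (SE 0.52, edgeR adjusted p = 0.943). It was −0.50 without sgCtrl pool 1 and 1.14 without sgCtrl pool 2, so that the choice of control pool sets its sign. *FOSL2* made up between 91.8% and 96.4% of the *FOSB*, *FOSL1*, and *FOSL2* counts of each library. The mean share was 92.1% ± 0.384 (SD, n = 2) in control and 93.9% ± 2.35 (SD, n = 3) in knockout pools (p = 0.4, two-sided exact permutation test).

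The other FOS-family genes were near the lower limit of these libraries, where 3 counts correspond to between 0.387 and 0.931 CPM. *FOSL1* (ENSG00000175592, chromosome 11, 65892049 to 65900573), which encodes FRA-1, had 5 and 11 counts in the control and 6, 8, and 12 counts in the knockout pools. Its log2-fold change was −0.77 (SE 0.66, edgeR adjusted p = 0.525), and the groups overlapped in CPM. *FOSB* (ENSG00000125740, chromosome 19, 45467995 to 45475179) had 0 and 4 counts in the control and 6, 4, and 5 counts in the knockout pools, did not pass the filter, and was not tested. It lies within *ERCC1* on the opposite strand. The sgCtrl pool 1 value of 0 allows a level of up to 0.931 CPM, which covers the values of all 3 knockout pools. A change of *FOSB* was therefore not detectable at this depth.

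*EGR1* (ENSG00000120738, chromosome 5, 138465479 to 138469303), a zinc finger factor and a textbook target of SRF through its CArG boxes, had 6 and 9 counts in the control and 8, 2, and 19 counts in the knockout pools. This corresponds to 1.86 and 2.67 CPM against 1.03, 0.359, and 3.29 CPM. The highest and the lowest values were both in knockout pools, and the log2-fold change was −0.55 (SE 0.83, edgeR adjusted p = 0.740). *ATF3* (ENSG00000162772, chromosome 1, 212565334 to 212620777), a stress-induced leucine zipper factor, had 5 counts in each control pool and 5, 1, and 2 counts in the knockout pools. In CPM, the knockout pools (0.645, 0.180, and 0.346) were below the control pools (1.55 and 1.48), but *ATF3* did not pass the filter and was not tested.

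Genes that act upstream of the members were examined by role. Among 6 tested genes of SRF and its cofactors, *SRF* and *ELK1* were higher in the knockout and the others did not pass. This is 33.3% of the list, against 4.17% of all tested genes. With 6 genes, 1 gene more or less moves the share by a wide margin. *SRF* was at 21.4 and 17.8 CPM in the control and 277, 288, and 442 CPM in the knockout pools, a log2-fold change of 4.09 (SE 0.40, edgeR adjusted p = 0.00457). *ELK1*, a ternary complex factor that joins SRF at promoters and is activated by ERK, was at 3.10 and 1.48 CPM in the control and 37.4, 20.5, and 24.7 CPM in the knockout pools. Its log2-fold change was 3.58 (SE 0.50, edgeR adjusted p = 0.00984). The control values of *ELK1* rest on 10 and 5 counts, so that its knockout pools carried it past the filter on low counts. It was not tested where at least 10 counts in every library were required. *ELK3*, *ELK4*, *MRTFA*, and *MRTFB* had log2-fold changes of −0.25, −0.49, 1.03, and −0.54. *SRF* differed between the groups without overlap. *EGR1* overlapped, but rests on 2 to 19 counts per library, and a link between them was not tested.

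The kinase cascades that signal to these promoters showed no call in edgeR's quasi-likelihood test among 28 tested genes of the RAS, RAF, ERK, JNK, and p38 pathways. Among all tested genes, 5.18% were called. Before adjustment, 4 of the 28 had p below 0.05 in edgeR, against 3359 of all 14391 tested genes. DESeq2 called 1 of the 28, and limma-voom called 0. *MAP3K7*, a kinase upstream of JNK and p38, had the smallest p-value. Its mean level was 52.8 ± 4.04 CPM (SD, n = 2) without and 108 ± 2.93 CPM (SD, n = 3) with *MTSS1* knockout (log2-fold change 1.02, SE 0.28, edgeR adjusted p = 0.0660). *GRB2* and *RPS6KA3*, which link receptors to RAS and ERK to its nuclear targets, had log2-fold changes of −0.79 and −0.80, with adjusted p-values of 0.116 and 0.129 from edgeR. The median over the 28 genes was −0.06.

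Of 47 other immediate early genes listed, 28 were tested, and 3 of these (10.7%), *IER5*, *NFKBIA*, and *MCL1*, rose in the knockout, against 4.17% of all tested genes. The median log2-fold change was 0.56, and 23 of the 28 values were positive. In 15 of the 28, all knockout pools were above both control pools (22.2% among all tested genes). *IER5*, a regulator of the heat shock response, was at 10.2 and 13.3 CPM in the control and 54.8, 73.6, and 74.4 CPM in the knockout pools (log2-fold change 2.51, SE 0.34, edgeR adjusted p = 0.00896). *NFKBIA*, the inhibitor of NF-kB, had a log2-fold change of 2.23 (SE 0.34, edgeR adjusted p = 0.0114), and *MCL1*, an anti-apoptotic BCL2 protein, of 1.62 (SE 0.31, edgeR adjusted p = 0.0218). *MCL1* overlaps *ADAMTSL4* on the opposite strand, and its edgeR adjusted p was 0.0683 without the sgMTSS1_1 and 0.0813 without the sgMTSS1_3 pool. Values in the list ranged from −1.01 to 2.68.

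Among 20 tested leucine zipper partners of AP-1, *MAFG* alone was called. This small MAF protein, which lacks an activation domain, was at 10.2 and 14.2 CPM in the control and 55.3, 30.7, and 50.3 CPM in the knockout pools (log2-fold change 1.89, SE 0.38, edgeR adjusted p = 0.0259), and overlaps *SIRT7* on the same strand. The list's share of 5.0% compares with 4.17% of all tested genes higher and 5.18% in either direction, and its median was −0.23. The edgeR adjusted p of *MAFG* was 0.0970 without the sgMTSS1_1 pool, 0.0857 without the sgMTSS1_3 pool, and 0.0501 without sgCtrl pool 1. Of 15 tested factors that bind or degrade mRNAs with AU-rich elements, edgeR called 0, DESeq2 called 1, and limma-voom called 0. An unadjusted edgeR p-value under 0.05 was found for 1 of the 15 and for 3359 of all 14391 tested genes. *ZFP36L1*, which promotes the decay of such mRNAs, had the smallest p-value in this list, at 25.8 and 17.8 CPM in the control and 54.6, 75.8, and 40.5 CPM in the knockout pools (log2-fold change 1.38, SE 0.37, edgeR adjusted p = 0.0629). *HNRNPD* (−0.68) and *CNOT7* (−0.64) followed, neither of them called, and both have annotated pseudogenes, which can share reads with them. The same holds for *ELK1* and *FOSL1*.

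Genes known as AP-1 targets in other cells had differences in both directions. Of 12 tested, 7 had positive and 5 had negative log2-fold changes, with a median of 0.08. *FOSL1*, a member itself, is among the negative ones. *TGFB1* alone was differentially expressed, and was lower. This is 8.33% of the list, against 1.01% of all tested genes lower and 5.18% in either direction. With 12 genes, 1 gene more or less moves the share by a wide margin. *TGFB1*, which encodes the cytokine TGF-beta, was at 172 and 170 CPM in the control and 26.3, 70.4, and 41.2 CPM in the knockout pools (log2-fold change −1.90, SE 0.39, edgeR adjusted p = 0.0276). Here, too, the groups did not overlap. *TGFB1* overlaps several genes on either strand, so that its count is uncertain. Without the sgMTSS1_1 or the sgMTSS1_3 pool, no gene of this list was called in edgeR, and without sgCtrl pool 1, 4 were.

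**Figure D3:**
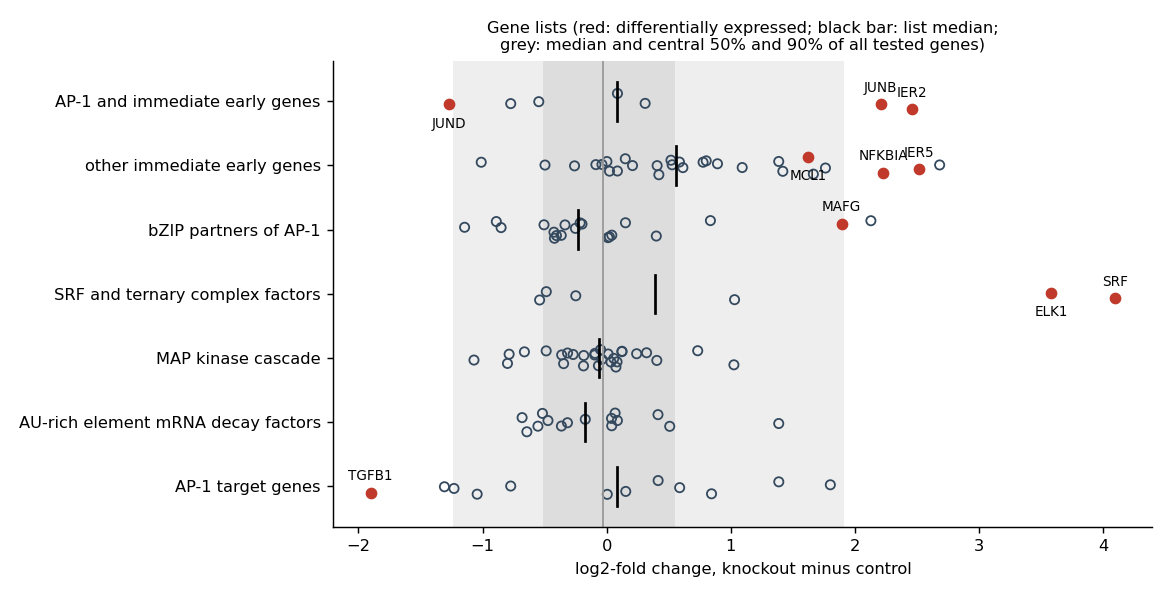
Log2-fold change (knockout minus control) of each tested gene in the 7 lists, with differentially expressed genes filled in red and named. Black bars are list medians, and the grey line and bands are the median and the central 50% and 90% of all 14391 tested genes. The median of the other immediate early genes, 0.56, is the highest of the lists, and *SRF* and *ELK1* lie farthest to the right.

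The profiles of *IER2*, *JUNB*, and *JUND* over the 5 libraries were compared with those of all tested genes, by the root mean square difference of centred log2 CPM with a prior count of 2, which draws low values together. For *IER2*, the nearest gene was *PABPN1*, a nuclear poly(A)-binding protein, at 0.063 log2 units, followed by *IER5* at 0.139 and *OAF* at 0.176. *PABPN1* was at 14.0 and 23.7 CPM in the control and 78.2, 111, and 114 CPM in the knockout pools. *IER5*, the second of these, is also an immediate early gene. For *JUNB*, the nearest were *SLC43A3* at 0.081, the unnamed gene ENSG00000275202 at 0.099, and *MAX* at 0.109. ENSG00000275202 had 1 and 0 counts in the control and 17, 11, and 14 counts in the knockout pools, so that its nearness to *JUNB* depends on the prior count. *MAX*, the dimer partner of MYC, was at 48.1 and 26.9 CPM in the control and 165, 157, and 219 CPM in the knockout pools. For *JUND*, they were *GOT1-DT* at 0.078, *PFKP*, a glycolytic enzyme, at 0.084, and *MESTIT1* at 0.091. The order describes these 5 libraries, which all genes share. *PABPN1*, *SLC43A3*, ENSG00000275202, *MAX*, *PFKP*, and *MESTIT1* overlap other annotated genes, and *PABPN1* has annotated pseudogenes. *GOT1-DT* rests on 9 to 18 counts per library and *MESTIT1* on 20 to 31.

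Because all knockout libraries were deeper, the fit was repeated with every library thinned to 2849979 counts. The log2-fold changes were then 2.11 for *JUNB*, 2.47 for *IER2*, and −1.26 for *JUND*, and all 3 passed both thresholds. With library size in place of TMM factors they were 2.04, 2.36, and −1.41. The number of differentially expressed members was 3 in the reported analysis and 1 without the sgMTSS1_1 or the sgMTSS1_3 pool, where *IER2* alone was called.

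**Figure D4:**
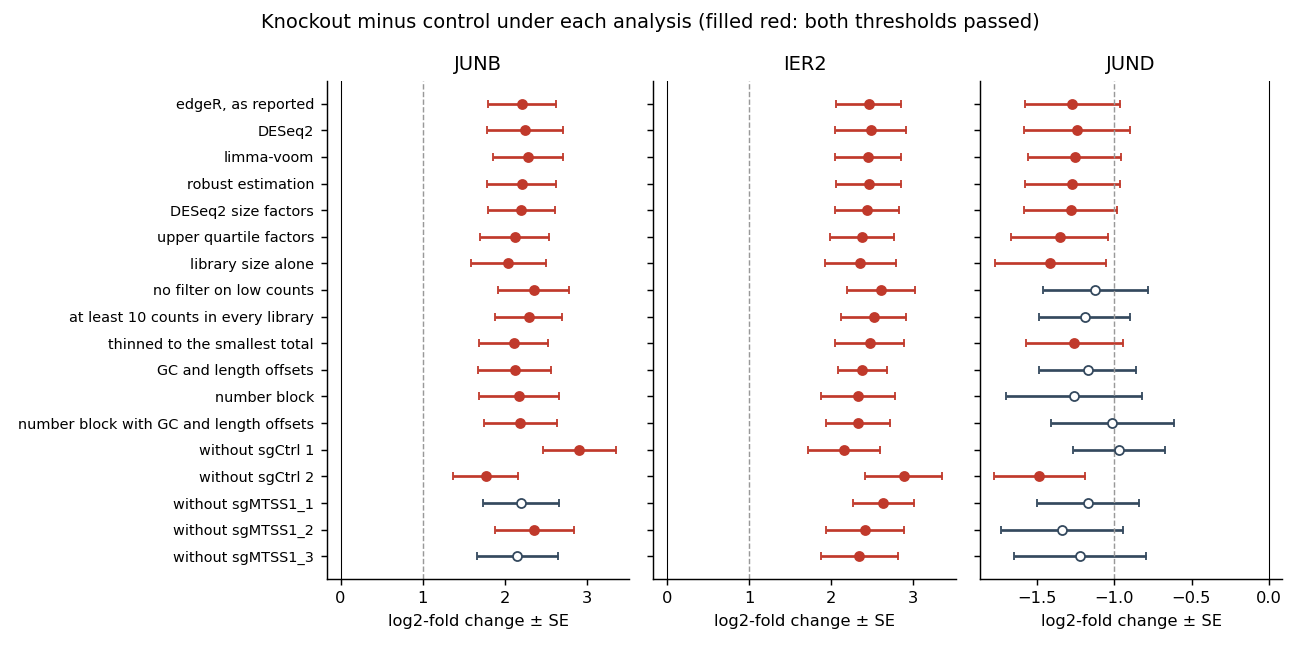
Log2-fold change (knockout minus control) with its standard error for *JUNB*, *IER2*, and *JUND* in the reported edgeR analysis and in 17 alternatives. Filled red points passed both thresholds, and dashed lines mark the log2-fold change threshold. *IER2* passed throughout, *JUNB* in 15 of 17, and *JUND* in 8 of 17 alternatives, with no change of direction.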

How the data were processed

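RNA-seq counts were analysed for 2 control and 3 *MTSS1* knockout pools. QuantSeq 3′ libraries were sequenced as 50 bp single-end reads. The authors trimmed adapters with BBDuk, aligned reads to GRCh38 with HISAT2 2.1.0, removed those not mapping uniquely with SAMtools 1.10, and deposited raw counts per Ensembl gene. The counting program, annotation release, strand setting, and duplicate handling are not given in the sources used here. Reads shared with near-identical copies are lost in this way, and PCR duplicates may be counted.

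Counts were tested with edgeR 4.0.16 in R 4.3.3 over all 5 libraries, with condition alone in the model, TMM factors, and filterByExpr at a minimum count of 10, which kept 14391 of 27328 genes. P-values were adjusted by Benjamini-Hochberg over all tested genes. Standard errors were derived from the quasi-likelihood F statistic. CPM are deposited counts over library totals times TMM factors, and 3 counts were taken as the lower limit. Shares carry 95% Wilson intervals, which like that limit cover counting error only. Pools are the replicates, so p-values measure the spread between the pools of clones that were kept. The authors had excluded a control pool and a knockout pool as outliers by their expression, which can narrow that spread. In the knockout, the spread also includes differences between sgRNAs. Gene models and symbols are from GENCODE release 44 on GRCh38, with symbols for 27211 genes, and promoters from RefSeq. The design called for *FOS* in the FOS-family share, which was taken over the other 3 genes.

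Alternatives were DESeq2 1.42.0, limma-voom (limma 3.58.1), robust estimation, other scaling, filters, and thresholds, libraries thinned to the smallest total, GC content and transcript length offsets (mgcv 1.9.3), the sgRNA or pool number as a block, and each replicate left out. The fits were tested on simulated data with the same variability for all genes. There, edgeR recovered 65% of 200 genes changed 4-fold, with 5 false calls, so that a gene not called may still differ. Members, lists, and tests were chosen with earlier results of these data known. The lists share genes, as *ZFP36L1* is both an other immediate early gene and an AU-rich element factor, and *FOSL1* is also a listed AP-1 target. Named are the members, up to 6 called genes per list (otherwise the 3 with the smallest p-value), and the 3 genes nearest in profile to each of the 3 members with the smallest p-value. *ELK3*, *ELK4*, *MRTFA*, and *MRTFB* were named after their values were seen. One further marker gene is not reported here.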

Additional observations from a re-analysis of the deposited data

How the results depend on the processing

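In all 17 alternatives to the reported fit, *JUNB*, *IER2*, and *JUND* kept their direction. *IER2* passed both thresholds throughout (adjusted p-values up to 0.0477), *JUNB* failed without the sgMTSS1_1 or sgMTSS1_3 pool, and *JUND* failed in 9 (adjusted p-values from 0.0501 to 0.201), among them no filter on low counts, at least 10 counts in every library, and the GC and length offsets. *FOSL2* changed sign when libraries were thinned (−0.10) and without sgCtrl pool 1 (−0.50) or the sgMTSS1_2 pool (−0.36), and was 1.14 without sgCtrl pool 2. Library size alone moved the median log2-fold change of all tested genes from −0.03 to −0.17, and no filter moved it to 0.11. The members called ranged from 1 to 3 with a replicate left out.

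All differentially expressed genes numbered 745 (600 higher, 145 lower), 1272 with DESeq2, 1374 with no filter, and 111 to 1349 with a replicate left out. The GC and length offsets gave 592 higher and 364 lower. With DESeq2, no filter, and the replicate block in turn, the other immediate early genes had 6, 6, and 5 calls, the leucine zipper partners 2, 2, and 2, the AU-rich element factors 1, 1, and 1, and the AP-1 targets 2, 3, and 2. The MAP kinase cascade had 1 call with DESeq2, with no filter, and with the GC and length offsets. SRF and its cofactors had 1 with at least 10 counts in every library, where *ELK1* was not tested. With a replicate left out, calls ranged from 2 to 6, 0 to 2, 0 to 1, 0 to 4, 0 to 1, and 2 to 3 in these lists, in the order given. Apart from fewer genes or libraries entering a fit, the cause was not tested.

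The pool numbers 1 and 2 occur in both groups, but nothing says that they mark shared handling. Across 14391 genes, the difference between pools 1 and 2 of the control and that of the knockout had a Pearson's r of 0.17. With the number as a block, 1094 genes were called and *JUND* had an adjusted p-value of 0.0711 from edgeR. As sgMTSS1_3 has no control pool of the same number, it does not inform the contrast in a fit with the block. With the block and the GC and length offsets together, 427 genes were called, *JUND* was at 0.201, and the leucine zipper partners had 0 calls. The control values of *JUNB* and *IER2* rest on 16 to 48 counts, and those of *FOSB*, *FOSL1*, *EGR1*, and *ATF3* on at most 11.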

Other observations

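*JUN*, *JUNB*, and *JUND* are unusual in being encoded by 1 exon. Among the tested protein-coding genes, 225 have a canonical transcript of 1 exon, and 17 of these were higher and 4 lower in the knockout (edgeR, both thresholds). Their median log2-fold change was 0.07, against −0.02 for all 11078 tested protein-coding genes, of which 437 were higher and 75 lower. In both directions the share called was larger among the genes of 1 exon than among all tested protein-coding genes, with 4 genes behind the lower share. The median GC content of the transcripts was 52.8% among the genes of 1 exon and 47.6% among all tested protein-coding genes. *JUNB* is among the higher and *JUND* among the lower genes. The part of exon number in their shifts was not tested.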
